A study of Mus musculus with 18 samples.

Results

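Transcripts for ST2 and related receptors of the interleukin-1 (IL-1) family were followed in thymic and splenic regulatory T cells (Tregs) that lacked CD25, the alpha chain of the IL-2 receptor, and in CD25-sufficient controls. The 8 genes were Il1rl1, Il1r1, Il1r2, Il1rap, Il18r1, Il18rap, Sigirr and Myd88, and they were taken by gene symbol from a count table of 50600 Ensembl gene IDs, in which all 8 were present. Libraries came from FACS-purified Tregs of C57BL/6 mice. Thymic CD25 KO Tregs (5 libraries) were from CD25 flox/Foxp3-YFP/Cre mice aged 3 to 4 weeks, which had received WT splenocytes as neonates to prevent autoimmunity. Thymic WT Tregs (5 libraries) were from Foxp3/RFP reporter mice of that age, for which no such transfer was stated. For splenic CD25 KO Tregs (4 libraries) the donors carried CD25 flox/Foxp3eGFP-Cre-ERT2/R26Y, and splenic WT Tregs (4 libraries) were from reporter controls. Both splenic groups received tamoxifen at 7 to 10 weeks of age and were harvested 10 to 14 days later. In each model Cre was driven from the Foxp3 locus, so deletion followed Foxp3 expression during development in the thymus and was induced in adult cells in the spleen. The thymic groups also differed in their Foxp3 reporter allele and in the transfer of donor splenocytes, which cannot be told apart from the loss of CD25. Each library came from its own mouse, per the study's description, and is called a mouse below.

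Receptors of this family signal through a shared intracellular domain. A ligand binds its own receptor chain, an accessory chain joins the complex, and the adaptor MyD88 then links the complex to IRAK kinases, TRAF6 and NF-kB. ST2, encoded by Il1rl1, is the receptor for the alarmin IL-33 and marks many Tregs of non-lymphoid tissues, and it pairs with the accessory chain encoded by Il1rap. Il1r1 encodes the signaling IL-1 receptor, whereas Il1r2 encodes a decoy receptor that binds IL-1 without signaling. Il18r1 and Il18rap encode the binding and accessory chains of the IL-18 receptor, and Sigirr encodes a relative that dampens signaling in the family.

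Of these genes, 5 lay on the plus strand of chromosome 1 within 478 kb (GRCm38, GENCODE M21). In order, these were Il1r2 (ENSMUSG00000026073.13, chr1:40074079-40125231), Il1r1 (ENSMUSG00000026072.12, chr1:40225080-40317257), Il1rl1 (ENSMUSG00000026069.15, chr1:40429570-40465415), Il18r1 (ENSMUSG00000026070.15, chr1:40465552-40500854) and Il18rap (ENSMUSG00000026068.11, chr1:40515362-40551705). Only 136 bases separated the annotated end of Il1rl1 from the start of Il18r1. Il1rap lay on chromosome 16 (ENSMUSG00000022514.14, chr16:26581704-26730117), Sigirr on chromosome 7 (ENSMUSG00000025494.8, chr7:141091175-141100572) and Myd88 on chromosome 9 (ENSMUSG00000032508.8, chr9:119335934-119341411). Exons of Il1rap shared 552 bases with Gm20319 and exons of Myd88 shared 290 bases with Acaa1a, in each case on the opposite strand. The strand setting of the counting was not given in the sources used here, so reads in those bases may have been assigned to either gene or to neither. A count over a whole gene also does not separate the transcripts for membrane and soluble ST2.

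RefSeq transcripts of Il1rl1 begin at a distal and a proximal promoter, and Il1rl1 and Il1r2 are the genes on which most of the results below turn. The 250 bases before each of those starts (RefSeq, GRCm38.p6, plus strand) are therefore shown 5′ to 3′, with capitals marking a match to the GATA letters AGATAA or the STAT letters TTCNNNGAA on either strand.
Il1rl1 distal, chr1:40429320-40429569: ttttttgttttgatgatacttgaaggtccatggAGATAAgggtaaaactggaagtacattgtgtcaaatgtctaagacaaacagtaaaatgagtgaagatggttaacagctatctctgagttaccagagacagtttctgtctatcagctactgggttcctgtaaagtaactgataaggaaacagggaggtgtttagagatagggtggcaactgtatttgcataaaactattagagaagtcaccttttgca
Il1rl1 proximal, chr1:40439379-40439628: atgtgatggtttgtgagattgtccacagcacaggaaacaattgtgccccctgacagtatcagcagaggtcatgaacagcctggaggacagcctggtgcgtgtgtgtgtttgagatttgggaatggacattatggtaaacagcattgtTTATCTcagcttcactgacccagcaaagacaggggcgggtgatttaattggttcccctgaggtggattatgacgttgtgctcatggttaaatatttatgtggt
Il1r2, chr1:40085843-40086092: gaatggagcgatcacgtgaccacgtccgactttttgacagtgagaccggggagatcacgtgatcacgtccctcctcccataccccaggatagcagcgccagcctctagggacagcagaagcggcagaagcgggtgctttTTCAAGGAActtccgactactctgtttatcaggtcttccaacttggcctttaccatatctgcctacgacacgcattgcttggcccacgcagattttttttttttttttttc
GATA-3 is a transcription factor of type 2 helper T cells and tissue Tregs, and STAT5 is the factor activated by the IL-2 receptor. Each Il1rl1 window held 1 match to the GATA letters, which began 217 and 103 bases before the respective start, and AGATAA was found in 9.99% of 32851 RefSeq windows of this length. The Il1r2 window held 1 match to the STAT letters, 111 bases before the start. That RefSeq start lies inside the GENCODE gene as placed above, and the bases before the GENCODE start were not searched. TTCNNNGAA was found in 7.02% of all windows and in 3 of 11 windows of the genes studied here, the others being Myd88 and the most downstream of the Il18r1 windows. TGANTCA, the letters bound by AP-1, was found in 6.75% of all windows and in 0 of the 11. Windows were listed for 7 of the 8 genes, and a match describes letters only, not binding.

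Libraries held between 17239774 and 32639570 assigned reads, and 3 reads, used here as the limit of detection, corresponded to at most 0.163 CPM (read counts normalised to sequencing depth). Levels are given as CPM after trimmed-mean (TMM) scaling over the 18 libraries, and as CPM per kb of exon where genes are compared. Il2ra, the targeted gene, was at 26.4% of the WT mean in thymic CD25 KO Tregs and at 35.6% in splenic CD25 KO Tregs. The KO groups did not overlap their controls, but a count over the whole gene includes transcripts that lack only the deleted exon. In the thymus, CD25 KO mice 2 and 4 kept 280 and 234 CPM of Il2ra, against 95.9 to 105 CPM in the other 3 CD25 KO mice and 524 to 682 CPM in WT mice. Foxp3 fell with CD25 deletion in thymus (log2 fold change -0.74, adjusted p = 0.00101) and spleen (-0.55, adjusted p = 6.9e-06). In these bulk samples, fewer cells of a type and less RNA per cell cannot be told apart.

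The question of the thymic comparison was which transcripts differed between CD25 KO and WT Tregs sorted from the thymus. Newly formed and older thymic Tregs were not separated. Il1rl1 was nearly lost from thymic CD25 KO Tregs, Il1r2 and Il18r1 fell, and none of the 7 genes tested was called higher. The 5 WT mice had Il1rl1 levels of 7.22, 6.12, 5.39, 14.7 and 7.22 CPM, from 120 to 321 reads each. The CD25 KO mice 1 to 5 had 0.20, 0.599, 0.0545, 0.676 and 0 CPM, from 4, 13, 1, 15 and 0 reads. No CD25 KO mouse reached the lowest WT mouse, and the mean of the KO group, 0.306 ± 0.313 CPM (SD, n = 5), was 3.77% of the WT mean of 8.12 ± 3.74 CPM (SD, n = 5). The fitted log2 fold change was -4.62 (SE 0.516, adjusted p = 0.000355, edgeR quasi-likelihood test with Benjamini-Hochberg adjustment), the 11th lowest of 16986 genes tested.

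The remaining Il1rl1 reads in thymic CD25 KO Tregs came mainly from mice 2 and 4, the mice with the most Il2ra. Without these mice the log2 fold change of Il1rl1 was -6.44 (adjusted p = 6.71e-05), a drop bound to follow from leaving out the highest mice of the KO group. WT mouse 4, the highest for Il1rl1, was also the highest for Il2ra, Il1r2, Il18r1 and Il18rap and for the summed level of immature thymocyte genes (144 CPM, against 32 to 61.3 CPM in the other WT mice and 37.6 to 84.1 CPM in CD25 KO mice). The part of these differences in the Il1rl1 result was not tested, and the log2 fold change ranged from -5.12 to -4.29 when each mouse was left out in turn.

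Il1r2, which encodes the IL-1 decoy receptor, was at 12.4, 10.4, 7.77, 14.9 and 9.52 CPM in thymic WT mice. In CD25 KO mice it was at 3.65, 4.84, 4.14, 6.08 and 1.21 CPM, again without overlap, and mice 2 and 4 were again the highest of the KO group. Its log2 fold change was -1.44 (SE 0.309, adjusted p = 0.00889). This call was close to the threshold of 0.01, and it was lost in 8 of 10 fits that left out 1 mouse. These left out any WT mouse, or CD25 KO mouse 1, 2 or 3 (log2 fold change -1.54 to -1.30). Without CD25 KO mice 2 and 4 the log2 fold change was -1.87 (adjusted p = 0.00252). A lower value was bound to follow from leaving out the highest mice of the KO group.

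Neutrophils also express Il1r2, and the summed level of 6 neutrophil genes was 0.256 to 2.57 CPM in thymic WT mice and 0.0461 to 0.315 CPM in thymic CD25 KO mice. Cxcr2 and Ly6g were at or below the limit of detection in every thymic mouse. S100a8 and S100a9 each reached 21 reads in thymic WT mice, against at most 0 and 1 read in thymic CD25 KO mice. The neutrophil sum was 2.57, 2.42, 0.943, 1.69 and 0.256 CPM in thymic WT mice 1 to 5. Il1r2 was at 12.4, 10.4, 7.77, 14.9 and 9.52 CPM in the same mice. The part of these transcripts in the Il1r2 result was not tested.

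Il18r1, which encodes the IL-18 binding chain, was at 34.6 to 44.9 CPM (median 37.5) in thymic WT mice and 18.4 to 27.6 CPM (median 22.8) in CD25 KO mice. Its log2 fold change was -0.73 (SE 0.110, adjusted p = 0.00209). Il18rap, the accessory chain, was at 4.65 to 8.96 CPM in WT mice and 1.47 to 4.03 CPM in CD25 KO mice. These groups did not overlap either, but the log2 fold change of -1.04 had an adjusted p of 0.0145 and was not called. Unlike Il1rl1 and Il1r2, Il18r1 and Il18rap were highest of the KO group in mouse 3 (27.6 and 4.03 CPM). Mouse 2 was at 22.0 and 2.49 CPM and mouse 4 at 26.4 and 3.29 CPM.

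**Figure D1:**
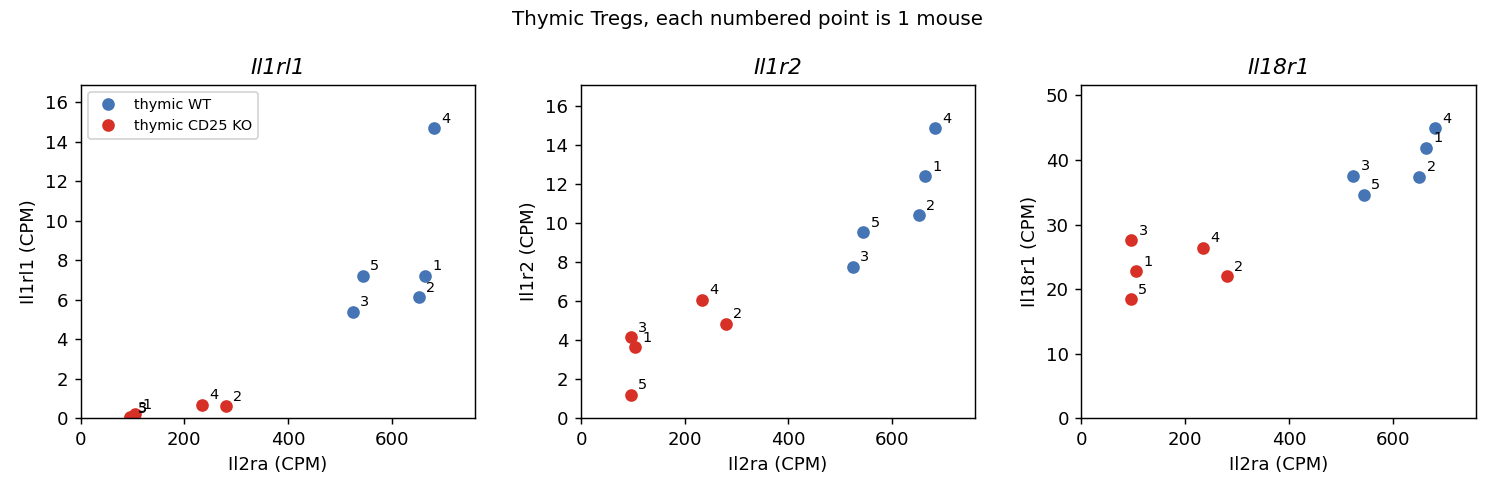
CPM of Il1rl1, Il1r2 and Il18r1 (vertical axes) against CPM of Il2ra (horizontal axes) in the 10 thymic mice, numbered within WT (blue) and CD25 KO (red). CD25 KO mice 2 and 4, at 280 and 234 CPM of Il2ra, have the most Il1rl1 and Il1r2 of their group, while all 5 WT mice lie above all CD25 KO mice for each of the 3 genes. Il18r1 is instead highest in CD25 KO mouse 3 (27.6 CPM), with mice 2 and 4 at 22.0 and 26.4 CPM.

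Il1rap, the accessory chain shared by ST2 and the IL-1 receptor, differed the other way. It was at 17.6, 15.8, 14.1, 16.2 and 14.6 CPM in thymic WT mice and at 20.1, 17.6, 19.5, 19.5 and 20 CPM in CD25 KO mice, where mouse 2 was the lowest of the KO group. The log2 fold change of 0.32 was not called (adjusted p = 0.0143). It was called under DESeq2 (0.33, adjusted p = 0.00137) and in the fit of all 18 libraries (0.31, adjusted p = 0.00554), and it was 0.16 (adjusted p = 0.18) once a trend with gene GC content was removed. Sigirr was at 79.8 ± 5.83 CPM in the WT group and 79.3 ± 3.82 CPM in the KO group (SD, n = 5 each), a log2 difference of 0.0077 with a 95% interval of -0.12 to 0.13. Myd88 was at 32.4 ± 3.44 and 28.2 ± 1.34 CPM (SD, n = 5 each; log2 fold change -0.18, adjusted p = 0.0936). Il1r1 was too low to be tested, with 3 to 12 reads in WT mice and 1 to 9 reads in CD25 KO mice.

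Thus 3 of the 7 genes tested in the thymus were lower and 0 were higher, against 2.99% and 3.17% of all genes tested. The median log2 fold change of the 7 was -0.73, beside -0.0022 for all genes.

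**Figure D2:**
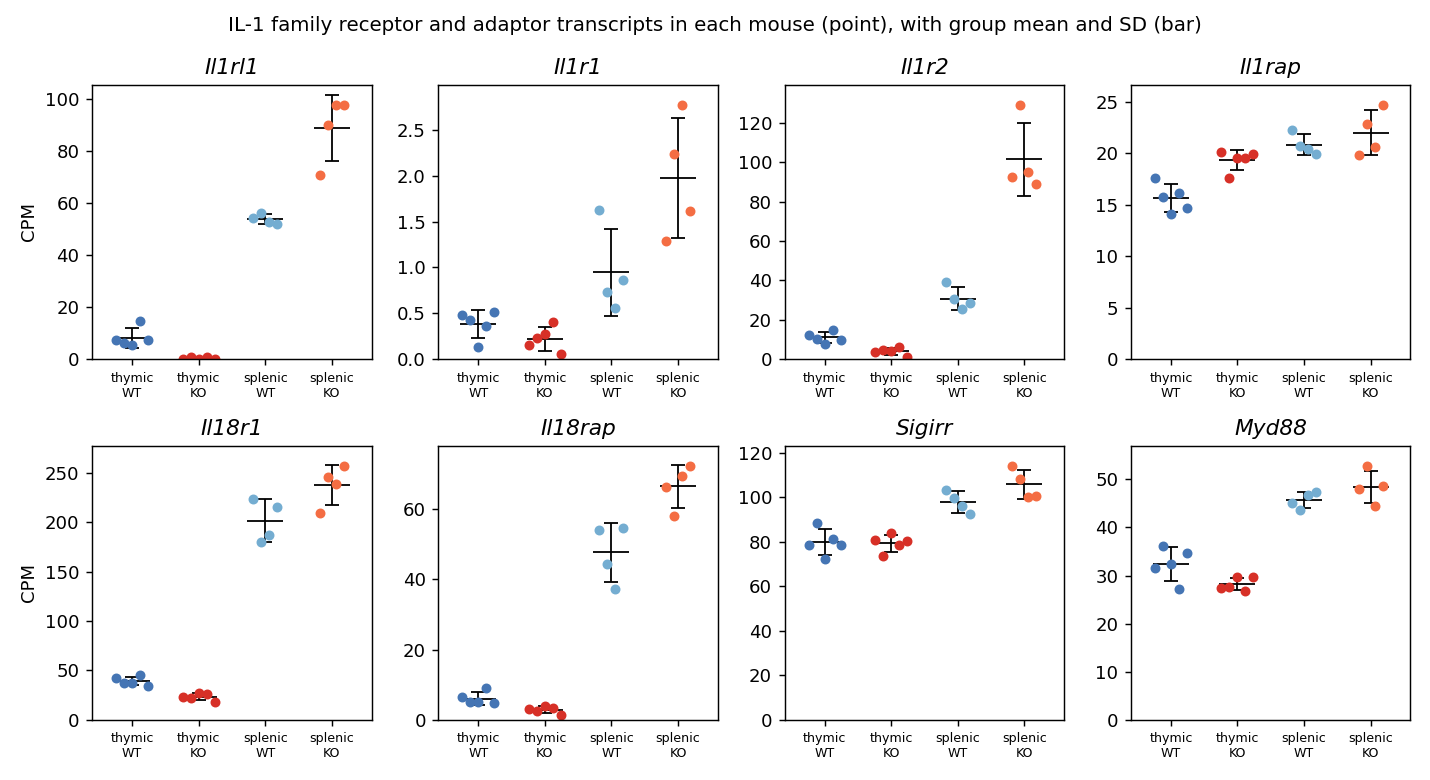
CPM of each of the 8 genes (vertical axes, linear and starting at 0) in every mouse of the 4 groups on the horizontal axes; points are mice, and black bars are the group mean with SD (n = 5 in each thymic group and 4 in each splenic group). Il1rl1 lies between 0 and 0.676 CPM in thymic CD25 KO mice and between 70.7 and 97.5 CPM in splenic CD25 KO mice.

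In the spleen, where CD25 was deleted from mature Tregs, the direction was the opposite. Il1r2, Il1rl1 and Il18rap rose with CD25 deletion, and none of the 8 genes was called lower. Il1r2 was at 39.1, 30.3, 25.2 and 28.5 CPM in WT mice and at 92.7, 129, 95.1 and 89.1 CPM in CD25 KO mice, a log2 fold change of 1.72 (SE 0.127, adjusted p = 4.71e-07). The lowest CD25 KO mouse was thus well above the highest WT mouse, and Il1r2 ranked 20th by p-value among 17463 genes tested. CD25 KO mouse 2 was far above the other 3 mice of its group, and the log2 fold change stayed between 1.58 and 1.85 with each mouse left out.

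Il1rl1 was at 54.2, 56.2, 52.7 and 51.8 CPM in splenic WT mice, which varied little. CD25 KO mice had 70.7, 90.0, 97.5 and 97.5 CPM, so that even the lowest exceeded every WT mouse. The log2 fold change was 0.73 (SE 0.0833, adjusted p = 2.25e-05), a smaller change than in the thymus from a level that was 6.61 times as high.

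The IL-18 receptor chains moved less. Il18rap was at 54.1, 44.5, 37.3 and 54.7 CPM in WT mice and at 66.4, 57.9, 69.4 and 72.3 CPM in CD25 KO mice (log2 fold change 0.48, SE 0.102, adjusted p = 0.0039). The groups did not overlap, but the call was lost without WT mouse 2 (0.45, adjusted p = 0.0164) or CD25 KO mouse 4 (0.44, adjusted p = 0.0138). Il18r1 was at 224, 180, 187 and 216 CPM in WT mice and 209, 246, 239 and 257 CPM in CD25 KO mice, which overlapped, and its log2 fold change of 0.24 was not called (adjusted p = 0.0402).

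NK cells also carry the IL-18 receptor. The summed level of 4 NK cell genes was 4.71 to 8.02 CPM in splenic WT mice and 10.9 to 16.2 CPM in splenic CD25 KO mice, with Klrb1c higher in the latter (log2 fold change 1.90, adjusted p = 0.0029), whereas Ncr1 and Klra8 were at or below the limit of detection in every mouse. The part of these transcripts in the Il18rap result was not tested.

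Il1r1 remained the least abundant gene of the family in the spleen. WT mice had 42, 20, 13 and 22 reads and CD25 KO mice 34, 62, 73 and 51 reads, and the log2 fold change of 1.05 was not called (adjusted p = 0.0292). Without WT mouse 1, the highest of its group, it was called (1.44, adjusted p = 0.00443). Il1rap, Sigirr and Myd88 had log2 fold changes of 0.081, 0.11 and 0.085 (adjusted p = 0.544, 0.204 and 0.380), with group ranges that overlapped for each.

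In all, 3 of 8 genes were higher and 0 were lower in splenic CD25 KO Tregs, against 5.90% and 3.55% of all genes tested. The median log2 fold change was 0.36, beside -0.0065 for all genes. When the 18 libraries were fitted together, which sets the spread from thymic mice as well, the call was kept for Il1r2 alone (Il1rl1 adjusted p = 0.0467, Il18rap adjusted p = 0.0983).

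**Figure D3:**
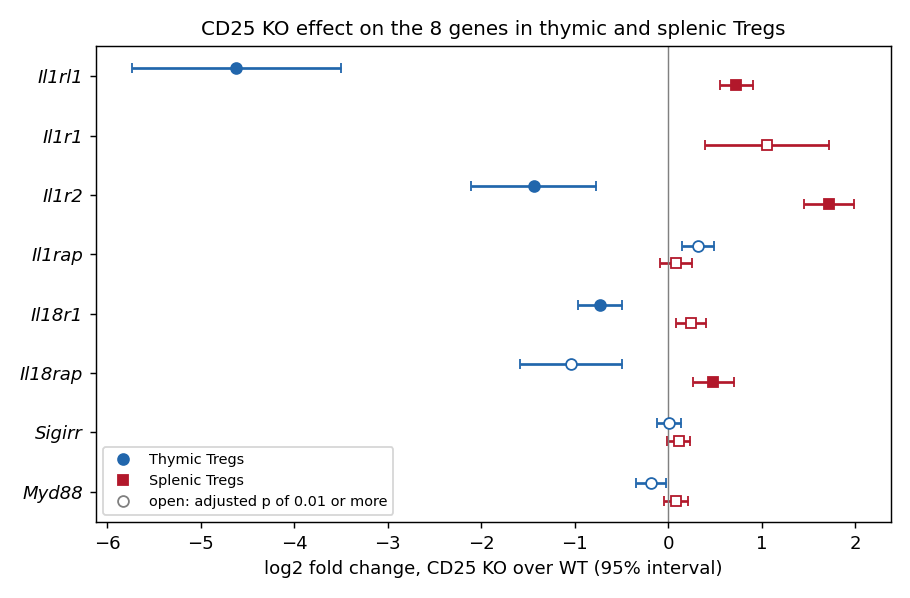
Log2 fold change of CD25 KO over WT for each gene (horizontal axis, with 95% intervals from the fit) in thymic Tregs (circles, 5 mice in each group) and splenic Tregs (squares, 4 mice in each group); filled symbols passed an adjusted p of 0.01, and Il1r1 was not tested in the thymus. Il1rl1 lies at -4.62 for thymic and 0.73 for splenic Tregs, and Sigirr and Myd88 lie near 0 in each tissue.

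The tissue difference was tested directly as the splenic effect minus the thymic effect in a fit of all 18 libraries. It was 5.35 on the log2 scale for Il1rl1 (SE 0.47, adjusted p = 4.04e-07), 3.17 for Il1r2 (SE 0.340, adjusted p = 4.58e-06), 1.53 for Il18rap (SE 0.276, adjusted p = 0.000943) and 0.98 for Il18r1 (SE 0.143, adjusted p = 0.000135). These were 4 of the 8 genes, against 6.98% of all genes in either direction, and they remained called with any 1 mouse left out. For Il1r1 the difference was 1.81 (adjusted p = 0.0416), for Myd88 0.28 (adjusted p = 0.0631), for Il1rap -0.23 (adjusted p = 0.166) and for Sigirr 0.12 (adjusted p = 0.344), none of which was called. Tissue, age, the timing of deletion and the mouse model changed together between these comparisons. So did tamoxifen, the transfer of donor splenocytes and the date in the library names, and none of these can be told apart.

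Among WT mice, levels of the family were higher in splenic than in thymic Tregs. All 8 genes were called higher in splenic WT than in thymic WT Tregs, against 21.0% of all genes tested. Tissue, age, tamoxifen, the mouse model, the reporter allele and the date in the library names changed together here and cannot be told apart. The log2 difference was 2.99 for Il18rap, 2.73 for Il1rl1, 2.36 for Il18r1 and 1.49 for Il1r2, and it was below 1 for Myd88 (0.50), Il1rap (0.41) and Sigirr (0.29). For Il1r1 it was 1.29 with an adjusted p of 0.00951, a call that was lost in 15 of 18 fits with 1 mouse left out.

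Per kb of exon, the order of the genes changed between groups. In thymic WT Tregs, Sigirr was the highest (26.2 ± 1.92 CPM per kb, SD, n = 5), followed by Myd88 (12.6 ± 1.34), Il18r1 (8.15 ± 0.847) and Il1r2 (5.76 ± 1.43). Il1rap (1.38 ± 0.12), Il1rl1 (1.18 ± 0.543) and Il18rap (0.892 ± 0.264) came next and were within each other's spread from one to the next, and Il1r1 was the lowest (0.0604 ± 0.0237). In thymic CD25 KO Tregs, Il1rl1 fell to 0.0444 ± 0.0453 CPM per kb, next to Il1r1 at 0.0349 ± 0.0208 and not separated from it by the spread.

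In splenic WT Tregs, Il18r1 was the highest (41.9 ± 4.46 CPM per kb, SD, n = 4), followed by Sigirr (32.1 ± 1.57), Myd88 (17.7 ± 0.682) and Il1r2 (16.1 ± 3.12), of which the last pair did not differ beyond the spread. Il1rl1 (7.80 ± 0.278) and Il18rap (7.06 ± 1.23) were likewise not separated, and Il1rap (1.83 ± 0.0901) and Il1r1 (0.149 ± 0.0742) were the lowest. In splenic CD25 KO Tregs the decoy receptor gene Il1r2 was at the top (53.2 ± 9.71 CPM per kb), with Il18r1 at 49.3 ± 4.23 within its spread.

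Ratios between partner genes within each library do not depend on scaling. In the thymus the log2 ratio of Il1rl1 to its accessory chain Il1rap was -1.04 ± 0.522 for WT mice and -6.72 ± 2.05 for those lacking CD25 (SD, n = 5 each), a change of -5.68 (two-sided exact permutation test, p = 0.00794, the smallest possible, adjusted p = 0.0317 over 8 tests). In the spleen it was 1.37 ± 0.0642 for WT mice and 2.01 ± 0.171 for those lacking CD25 (SD, n = 4 each), a change of 0.64 (exact p = 0.0286, the smallest possible, adjusted p = 0.0457).

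Il1rl1 also moved further than Il18r1, although the latter begins 136 bases past its end. The log2 ratio of Il1rl1 to Il18r1 differed by -4.62 in the thymus (exact permutation test, p = 0.00794, adjusted p = 0.0317) and by 0.48 in the spleen (exact p = 0.0286, adjusted p = 0.0457). The decoy to receptor ratio, Il1r2 to Il1r1, differed by -0.79 in the thymus with overlapping groups (exact p = 0.0238, adjusted p = 0.0457) and by 0.62 in the spleen (exact p = 0.0857, adjusted p = 0.114). The ratio of Il18r1 to Il18rap differed by 0.33 for thymic and -0.25 for splenic mice (adjusted p = 0.127 by exact permutation for each), so that no change in the balance of the IL-18 receptor chains passed the test.

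**Figure D4:**
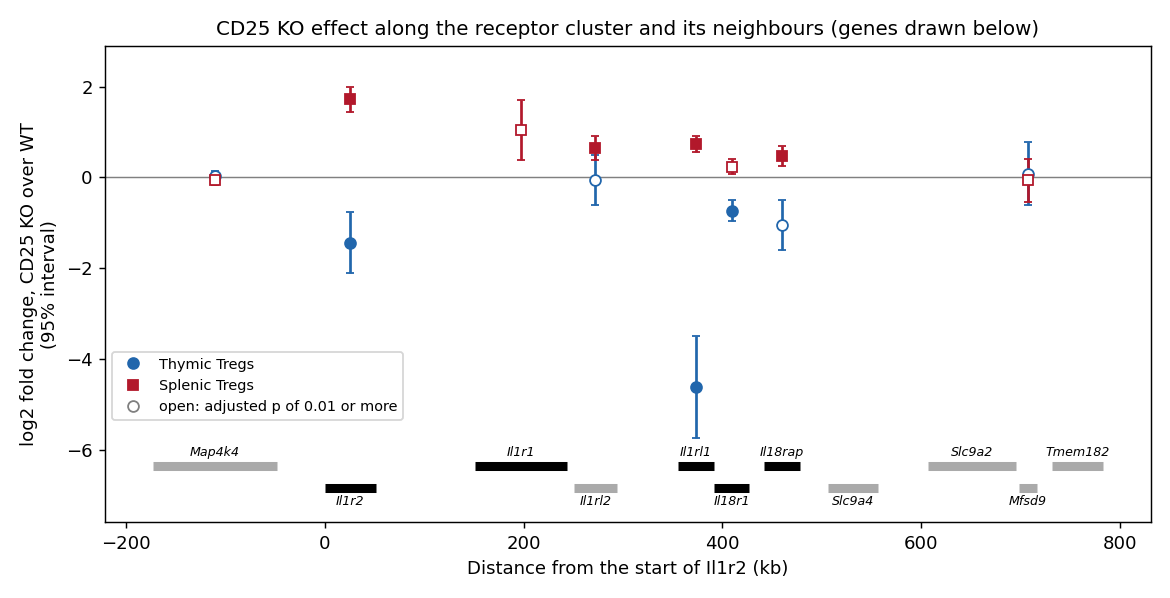
Log2 fold change of CD25 KO over WT (vertical axis, with 95% intervals) for genes tested along the chromosome 1 receptor cluster, plotted at the middle of each gene against distance from the start of Il1r2 in kb; bars below mark the 5 receptor genes (black) and 6 neighbours (grey), circles are thymic and squares splenic Tregs, and filled symbols passed an adjusted p of 0.01. Map4k4 and Mfsd9, which flank the cluster, lie between -0.064 and 0.084 in each tissue.

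Of 6 neighbouring genes, 3 could be tested. Il1rl2, the receptor for IL-36 and a member of the same family, lies between Il1r1 and Il1rl1 and was higher in splenic CD25 KO Tregs (7.74 ± 0.731 against 4.92 ± 0.660 CPM, SD, n = 4 each; log2 fold change 0.65, adjusted p = 0.00195). In the thymus it was at 5.57 ± 1.31 CPM in CD25 KO and 5.80 ± 2.26 CPM in WT mice (SD, n = 5 each; log2 fold change -0.048, adjusted p = 0.909). Map4k4, a kinase gene upstream of the cluster, had log2 fold changes of 0.037 (thymus) and -0.051 (spleen), and Mfsd9 of 0.084 and -0.064, none of which was called. Slc9a4, Slc9a2 and Tmem182 had at most 6 reads in any mouse.

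Ligands of the family were scarce in these cells. Of 11 ligand and antagonist genes present in the table, 2 could be tested for thymic and 4 for splenic Tregs, and none was called. Of all genes tested, 2.99% were called lower and 3.17% higher in the thymus, and 3.55% and 5.90% in the spleen. Il33, the ligand of ST2, had 0 to 2 reads in every mouse, and Il1b had 0 to 9. Il18bp, the secreted inhibitor of IL-18, was the most abundant with means of 25.5 ± 1.85 CPM (thymic WT) and 28.6 ± 2.24 CPM (thymic CD25 KO; SD, n = 5 each), and its fold changes of 0.18 and -0.097 on the log2 scale in thymus and spleen were not called (adjusted p = 0.0929 and 0.488).

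Genes downstream of the receptors were followed as lists. Of 17 genes from the IRAK kinases to the TAK1 complex, 1 fell and 2 rose in the thymus, where 2.99% and 3.17% of all genes tested did, and 1 fell and 0 rose in the spleen, against 3.55% and 5.90%. The median log2 fold changes of the list were 0.022 and -0.049. Traf6, the ubiquitin ligase of the pathway, fell in the thymus (log2 fold change -0.27, adjusted p = 0.00275), and no gene of the list was called lower there without WT mouse 2, WT mouse 5 or CD25 KO mouse 3. Tab3, a TAK1 partner, and Peli1, a ubiquitin ligase that acts on IRAK proteins, rose there (0.52 and 0.49, adjusted p = 0.00432 and 0.00148), and 1 gene in place of 2 was called higher in 5 of 10 fits with 1 mouse left out (WT mouse 2, 3 or 5 or CD25 KO mouse 1 or 3). Peli2, a relative of Peli1, fell in the spleen (-1.08, adjusted p = 9.94e-05).

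Of 9 NF-kB targets, 1 fell in the thymus, where 2.99% of all genes tested did, and 4 rose and 1 fell in the spleen, against 5.90% and 3.55%. Icam1, an adhesion molecule, fell in the thymus (-0.52, adjusted p = 0.0027, not called without WT mouse 2) and rose in the spleen (0.33, adjusted p = 0.00034). Thymic levels of Tnfaip3 were higher in CD25 KO mice (606 ± 198 CPM) than in WT mice (304 ± 55.5 CPM, SD, n = 5 each), but this was not called. In the spleen Tnfaip3, an inhibitor of NF-kB signaling, rose by 0.58 on the log2 scale, Nfkb2 by 0.37 and Relb by 0.26 (adjusted p = 0.00032, 0.00076 and 0.00995), whereas Nfkbiz fell (-0.31, adjusted p = 0.00582), a call that was lost in 4 of 8 fits with 1 mouse left out (WT mouse 1 or 2 or CD25 KO mouse 2 or 4).

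Toll-like receptors also use MyD88. Tlr1 fell in the thymus (-0.84, adjusted p = 0.00241) and the spleen (-0.25, adjusted p = 0.00317), and Tlr4 rose in the spleen (1.31, adjusted p = 0.00011), as 1 of 6 genes tested in the thymus and 2 of 7 in the spleen. The shares of all genes tested were 2.99% (thymus, lower), 3.55% (spleen, lower) and 5.90% (spleen, higher). Casp1 and Casp4 are inflammatory caspases, of which caspase-1 activates IL-1 beta and IL-18. Both rose in the spleen (0.77 and 0.75, adjusted p = 9.29e-06 and 1.31e-05), as 2 of 6 inflammasome genes tested, where 5.90% of all genes did. In the thymus 0 of 5 were called, against 2.99% (lower) and 3.17% (higher) of all genes tested.

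Transcripts that accompany ST2 in tissue and effector Tregs were followed as a list of 19 genes. In the thymus 17 could be tested, of which 7 fell, 0 rose and 10 were not called, against 2.99% of all genes called lower. In the spleen 17 of the 19 rose and 0 fell, against 5.90% of all genes called higher. Median log2 fold changes were -0.60 (thymus) and 0.78 (spleen). Several of these genes, and of the central Treg genes given after them, were named by the study from the splenic libraries, so these counts are not independent evidence of a direction. Klrg1, a receptor of effector Tregs, was at 0.808 to 4.16 CPM in thymic WT mice and had 0 or 1 read in thymic CD25 KO mice, and in the spleen it rose by 0.77 on the log2 scale (adjusted p = 4.88e-06). Tigit, an inhibitory receptor, fell in the thymus (-2.58, adjusted p = 6.6e-05) and rose in the spleen (1.28, adjusted p = 6.55e-07). Prdm1, which encodes the effector factor Blimp-1, fell in the thymus (-1.05, adjusted p = 0.00366) and rose in the spleen (1.00, adjusted p = 6.17e-07).

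Il10, the suppressive cytokine, rose in the spleen from 3.15 ± 1.16 to 12.8 ± 2.84 CPM (SD, n = 4 each; log2 fold change 2.02, adjusted p = 7.33e-06). Pparg, a factor of adipose Tregs, rose there by 1.90 on the log2 scale (adjusted p = 3.91e-05), and Areg, a repair factor made by ST2+ Tregs, by 1.16 (adjusted p = 0.000116). The thymic level of Areg averaged 0.891 CPM for WT and 1.22 CPM for CD25 KO mice, and its log2 fold change of 0.47 was not called (SE 0.206, adjusted p = 0.112). Gata3 rose in the spleen (0.41, adjusted p = 0.00013), and its thymic log2 fold change of -0.27 was not called (adjusted p = 0.0373). The direct test of the tissue difference was passed by 15 of the 19 genes, against 6.98% of all genes in either direction. The thymic count was unstable, with 2 to 8 genes called when each mouse was left out, whereas the splenic count stayed between 15 and 17.

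**Figure D5:**
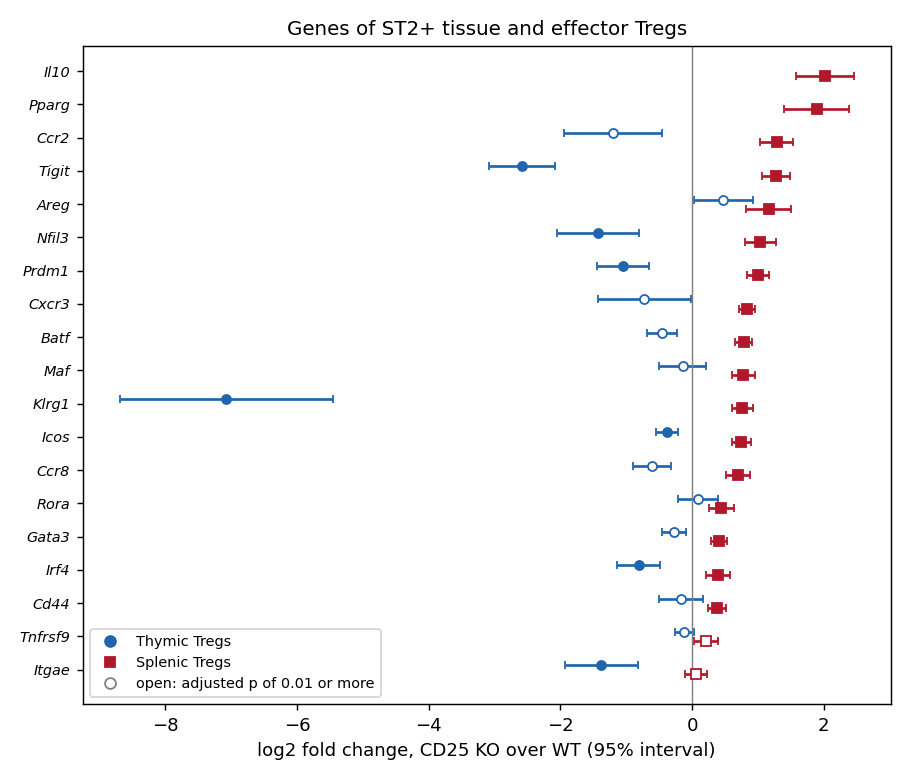
Log2 fold change of CD25 KO over WT (horizontal axis, with 95% intervals) for 19 genes of ST2+ tissue and effector Tregs in thymic (circles) and splenic (squares) Tregs, ordered by the splenic value; filled symbols passed an adjusted p of 0.01, and genes without a circle were not tested in the thymus. The thymic value of Klrg1 is a fitted value for a gene with 0 or 1 read in each thymic CD25 KO mouse.

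Genes of central Tregs, the resting counterpart, were followed as a contrast, in a list of 10. Of these, 4 fell, 1 rose and 5 were not called in the spleen, against 3.55% (lower) and 5.90% (higher) of all genes tested. For thymic Tregs 1 fell, 0 rose and 9 were not called, against 2.99% and 3.17%. In the spleen Ly6c1 (-1.30), Bcl2 (-1.01) and Ccr7 (-0.60) fell (adjusted p at most 0.000142), and Tcf7 rose (0.24, adjusted p = 0.00706), a call that was lost when any of the 4 WT mice or CD25 KO mouse 2 or 4 was left out. In the thymus Klf2, a factor for thymic egress, fell (-0.53, adjusted p = 0.00354), a call that was lost in 4 of 10 fits with 1 mouse left out (WT mouse 2, 3 or 5 or CD25 KO mouse 3), and Ly6c1, Bcl2, Ccr7 and Tcf7 were not called.

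Other cells that express ST2 were looked for by their markers. Of 7 mast cell and basophil genes, Fcer1a, Ms4a2 and Mcpt4 were at or below the limit of detection in every mouse. The sum of the 7 genes was 47.2 to 69.3 CPM in thymic WT and 49.0 to 69.0 CPM in thymic CD25 KO mice, mostly from Kit (means of 58.6 and 56.3 CPM), and 2.02 to 3.71 and 2.13 to 2.98 CPM in splenic WT and CD25 KO mice. Cpa3 was at 1.72 ± 0.402 CPM in thymic WT and 3.75 ± 1.82 CPM in thymic CD25 KO mice (SD, n = 5 each). Gata2 and Mcpt8 went the other way, reaching 17 and 24 reads (0.824 and 1.16 CPM) in a thymic WT mouse. Both had a median of 0 CPM in thymic WT mice and 0 reads in every thymic CD25 KO mouse. Of the 3 genes of type 2 innate lymphoid cells, Il5 and Il13 had at most 5 and 14 reads in any mouse, and Il17rb, which Tregs can share, had group means of 11 to 14 CPM. Summed myeloid genes were at 11.6 to 33.2 CPM in thymic WT and 9.96 to 22.7 CPM in thymic CD25 KO mice, and at 19.8 to 25.9 and 24.4 to 32.2 CPM in splenic WT and CD25 KO mice, with Lyz2 higher in the last group (log2 fold change 1.03, adjusted p = 0.00132). The part of these cells in the results for Il1rl1 and Il1r2 was not tested.

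Across the 18 libraries, with tissue means removed, the receptor genes of chromosome 1 that could be compared varied together. Pearson's r was 0.94 between Il18r1 and Il18rap, 0.88 between Il1rl1 and Il18r1 and 0.79 between Il1rl1 and Il1r2, whereas with Il1rl1 it was -0.69 for Il1rap, 0.42 for Myd88 and -0.0070 for Sigirr, given as a description because the libraries share their groups. Of 16214 genes compared, those most like Il1rl1 were Cd80, March3, D630039A03Rik, Ncmap (each r = 0.97) and Furin (r = 0.96). Cd80, a costimulatory ligand, was the only one of these called in each tissue (log2 fold change -2.54 in the thymus and 1.10 in the spleen, adjusted p = 0.000794 and 0.000334). Those most like Il1r2 included Creb3l2, Gata3, Sspo and Capn5 (r = 0.95 to 0.97), and those most like Il18r1 were Gna15, Cemip2, Ttc39c, Mrgpre and Ptprj (r = 0.93 to 0.94).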

How the data were processed

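Total RNA of sorted Tregs was sequenced as 75 bp paired-end reads from ribosome-depleted libraries. The authors aligned reads to GRCm38 with STAR 2.5.0b and assigned them to GENCODE genes with featureCounts 1.5.0, and they deposited raw read counts per gene in 1 table for the 18 libraries. Reads carried no molecular identifiers, so counting limits cover counting error only. Symbols for 50376 of 50600 IDs, positions and exon lengths were taken from GENCODE M21. The 8 genes, the gene lists and the tests were chosen with earlier results of these data known.

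Counts were tested in each tissue with the quasi-likelihood test of edgeR 4.0.16 in R 4.3.3 (TMM scaling, filterByExpr, Benjamini-Hochberg over all genes tested, called at an adjusted p below 0.01), and tissue differences in 1 fit of all 18 libraries. The test was also run on simulated counts with known changes, and the outcome is not reported here. Within-library log2 ratios used a pseudocount of 0.5 and two-sided exact permutation tests. Genes were named by rule: all 8 genes, the called genes of each list (at most 4 in each direction, by fold change), every neighbour, and the 5 genes most like Il1rl1, Il1r2 and Il18r1 by Pearson's r of log2 CPM (prior count 2) with tissue means removed. Some genes that the rule names are not reported here. Gata3, Areg, Nfkb2 and Il18bp were named beside these after their values were seen. Alternatives were other scalings and filters, DESeq2 1.42.0, an adjusted p below 0.05, a GC correction, a fit of all 18 libraries, a block on the numbers in the thymic titles, leaving out each mouse, and leaving out thymic CD25 KO mice 2 and 4.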

Additional observations from a re-analysis of the deposited data

Results flagged for a closer look

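The effect of CD25 deletion differed between spleen and thymus by direct test for Il1rl1 (splenic minus thymic log2 fold change 5.35), Il1r2 (3.17), Il18rap (1.53) and Il18r1 (0.98). Of 36 sets of 4 or 5 mice (the 8 genes and Il2ra in 4 groups) tested for 1 mouse standing apart, 4 had one, where chance gives about 1 in 20. Il1rl1 was at 14.7 CPM in thymic WT mouse 4, against 5.39 to 7.22 CPM in the other 4 mice. Il1r2 was at 129 CPM in splenic CD25 KO mouse 2, against 89.1 to 95.1 CPM in the other 3 mice. Il1rap was at 17.6 CPM in thymic CD25 KO mouse 2, the lowest of its group. Il2ra was at 488 CPM in splenic WT mouse 2, the lowest of its group, where the other 3 mice were between 532 and 539 CPM.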

How the results depend on the processing

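No value of the 8 genes that was called changed sign under any alternative run. With Il1rap added, 1 gene was higher in thymic CD25 KO Tregs under DESeq2, at an adjusted p below 0.05 and in the fit of all 18 libraries, against 0 in the other fits. Il18rap was called lower in the thymus under DESeq2 (-1.04, adjusted p = 0.000661) and in the fit of all 18 libraries (-1.05, adjusted p = 0.00136), and without a filter on low counts (adjusted p = 0.00798). A filter of at least 10 counts in every library removed Il1rl1 from the thymic test and from the test of the tissue difference. The count of higher genes in the spleen was 5 at an adjusted p below 0.05 or without a filter on low counts, and 1 in the fit of all 18 libraries. With each mouse left out, the calls numbered 2 to 3 (thymus, lower), 0 to 0 (thymus, higher), 0 to 0 (spleen, lower), 2 to 4 (spleen, higher), 4 to 4 (tissue difference) and 7 to 8 (splenic over thymic WT).

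Same-numbered thymic mice deviated together at r = -0.24 to 0.14, and 1 of 5 CD25 KO mice correlated best with its own number. With so few mice these values cannot decide whether the numbers pair the mice, and the titles do not say. With the replicate block, Il1r2 was no longer called in the thymus (-1.52, adjusted p = 0.0139, and -1.47, adjusted p = 0.0149 with the GC correction), Il1rl1 and Il18r1 were still called, and 209 genes were called in all (240 with the GC correction), against 1047 without it. The block turned the thymic ratios of Il1r2 to Il1r1 (-0.79), Il1rl1 to Il1rap (-5.68) and Il1rl1 to Il18r1 (-4.62) into sign-flip tests whose exact p of 0.0625 is the smallest possible. No block was possible in the spleen, where the titles share no numbers.

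Without thymic CD25 KO mice 2 and 4 these ratios were -0.79, -6.95 and -5.81 (exact permutation test, adjusted p = 0.119, 0.0571 and 0.0571). With each mouse left out they ranged from -0.96 to -0.59 (adjusted p above 0.05 in 9 of 10 fits), -6.16 to -4.97 and -5.08 to -4.0. Il18r1 to Il18rap ranged from 0.19 to 0.40 for thymic mice. For splenic mice it ranged from -0.34 to -0.18, and Il1r2 to Il1r1 ranged from 0.45 to 0.83, Il1rl1 to Il1rap from 0.56 to 0.70 and Il1rl1 to Il18r1 from 0.43 to 0.55. The adjusted p of Il1rl1 to Il1rap (exact permutation test) rose to 0.0571 without CD25 KO mouse 1, 3 or 4, and that of Il1rl1 to Il18r1 rose to between 0.0762 and 0.0914 without any 1 of the 4 CD25 KO mice. The adjusted p of Il18r1 to Il18rap was 0.0457 (exact permutation test) without CD25 KO mouse 2. Leaving out mice raises the smallest possible exact p, so a higher adjusted p does not by itself show a smaller difference.

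Over all genes, thymic calls numbered 2763 under DESeq2, 3951 at an adjusted p below 0.05, 2881 in the fit of all 18 libraries, 2008 without CD25 KO mice 2 and 4, and 371 to 1087 with 1 mouse left out. Splenic calls numbered 1651, and 3001 at an adjusted p below 0.05 or 795 in the fit of all libraries. Calls of the tissue difference numbered 1305, and 2144 under DESeq2, 3149 at an adjusted p below 0.05 and 2307 without those mice. Thymic calls split into 508 lower and 539 higher, and into 440 and 808 with upper-quartile scaling or 406 and 847 with library totals. Splenic calls split into 620 and 1031, and into 769 and 920 or 458 and 1463 under the same scalings. The tissue difference split into 465 and 840, and into 669 and 616 (upper quartile) or 677 and 678 (GC correction), and the WT comparison into 3638 and 3919, and into 4423 and 3193 (library totals). Fold changes fell with gene GC content in the thymus (Spearman's rho -0.41 across 16945 genes, which are not independent) more than in the spleen (-0.17 across 17423 genes). Depth limits Il1r1, which was too low to be tested in the thymic comparison.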
